A study of Mus musculus with 6 samples.

Results

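The cells described here were Clu+ Lbp+ tumor cells of subcutaneous pancreatic tumors in mice, carcinoma cells that carried transcripts of the secreted proteins clusterin and lipopolysaccharide-binding protein. They were taken from the deposited matrices by a fixed rule. A barcode had 1000 or more genes detected and no more than 10% of its UMIs (unique molecular identifiers, each counting 1 captured transcript) from mitochondrial genes, and 1 hashtag held at least 2/3 of its antibody UMIs. It had at least 3 UMIs of the keratins Krt8 and Krt18 together, at least 3 of Clu and at least 1 of Lbp. It had no UMI of Hmga2, Tff1 or Ptprc (CD45), and at most 2 of the macrophage genes C1qa, C1qb and C1qc together. The rule was met by 1420 barcodes, which were 10.7% of the 13316 singly hashtagged tumor epithelial barcodes, out of 130444 barcodes in the 3 libraries.

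The tumors had been grown from 6694c2vTRP1 cells, a line derived from a KPC mouse pancreatic ductal adenocarcinoma, injected under the skin of C57BL/6 mice. Mice received PBS, mono-IL10 (a monomeric IL-10, 26 µg per mouse) or IL10/2-Trikine (a cytokine built to engage IL-10 and IL-2 receptor chains, 30.6 µg per mouse) by intraperitoneal injection from day 8, in 2 doses, and tumors were taken on day 14. Cells bound by CD45 beads from 5 mice per group were tagged with 1 hashtag antibody per mouse and pooled into 1 library per treatment, so that treatment and library cannot be told apart. Per the study's methods both male and female mice were used for this tumor model, and the sex of each hashtagged mouse was not given in the sources used here. For the parental tumor line the mice were 6 to 8 weeks old. The tumor cells analysed here are therefore cells that came through an isolation aimed at CD45+ leukocytes.

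The 3 libraries held between 364814102 and 515236552 gene UMIs. The Clu+ Lbp+ barcodes had a median of 17422 UMIs in PBS, 20669 under mono-IL10 and 8840.5 under IL10/2-Trikine, and Hmga2+ tumor cells were deeper in each library (30220, 36624 and 11514). Because the rule rests on UMIs being present or absent, the share among tumor cells, the share among all cells and the contrasts were computed again after barcodes had been thinned to 5000 UMIs and the rule had been applied to the thinned UMIs. Barcodes under 5000 UMIs were left out, which were 14 of the 283 Clu+ Lbp+ cells in PBS, 3 of the 177 under mono-IL10 and 146 of the 960 under IL10/2-Trikine. Thinning removed UMIs of Hmga2, Tff1, Ptprc and the C1q genes as well, so barcodes that had failed the rule through these genes could enter. Afterwards 505, 524 and 978 barcodes met the rule. At most 283 of the 505 in PBS and 177 of the 524 under mono-IL10 had met it as deposited. Tumor epithelial barcodes numbered 3159, 4014 and 6486 after thinning against 2741, 3721 and 6854 as deposited. Barcodes with Ptprc or more C1q UMIs as deposited are thus among the thinned ones. Of the barcode sequences, 29 of the 1420 also occurred in another library, but none of them met the rule there.

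Clusterin is an extracellular chaperone and Lbp hands bacterial lipopolysaccharide to CD14. Both belong, with ceruloplasmin (Cp), complement C3 and lipocalin 2, to the acute-phase proteins, which the liver and also epithelia secrete when IL-6-type cytokines and IL-1 act through STAT3, C/EBP and NF-kB factors. In pancreatic ductal epithelium Sox9 keeps ductal identity, and Clu marks injured or regenerating epithelium in several organs. Hmga2 is a chromatin protein of fetal tissue that is expressed again in less differentiated carcinoma cells.

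The label was checked against the data before any comparison. Clu at 3 or more UMIs was not particular to these cells, being met by 98.9% of tumor epithelial barcodes in PBS, 99.1% under mono-IL10 and 97.9% under IL10/2-Trikine. Both the Clu and the Lbp threshold were met by 65.3%, 68.5% and 47.5% of tumor barcodes, and by 67.2%, 68.9% and 49.0% of the Hmga2+ tumor cells. Hmga2 was detected in 81.1%, 91.7% and 67.4% of tumor barcodes, so that most barcodes past the Clu and Lbp thresholds were left out by their Hmga2 UMIs. The population is therefore called by its rule below, as Clu+ Lbp+ Hmga2- cells. In non-epithelial cells the pair of thresholds was met by 3 of 2485 lymphocytes (0.121%) and 14 of 9362 macrophages (0.1495%) in PBS, by 1 of 3046 (0.0328%) and 2 of 7883 (0.0254%) in mono-IL10, and by 2 of 2882 (0.0694%) and 14 of 8081 (0.173%) in IL10/2-Trikine. The Lbp threshold alone was met by 1.45% of these lymphocytes and 1.68% of these macrophages in PBS. It was met by 2.04% and 1.99% in mono-IL10, and by 1.35% and 1.66% in IL10/2-Trikine. Only lymphocytes and macrophages without a Krt8 or Krt18 UMI were counted, which leaves out those carrying tumor keratin RNA.

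The values at the thresholds follow from the rule and are given as a description. Among Clu+ Lbp+ Hmga2- cells, 96 of 283 in PBS, 49 of 177 under mono-IL10 and 485 of 960 under IL10/2-Trikine held exactly 1 Lbp UMI, while only 7 cells, all in IL10/2-Trikine, held exactly 3 Clu UMIs. Just outside the rule, 226, 214 and 676 barcodes differed from it by a single Hmga2 UMI, and 182, 105 and 1095 by having no Lbp UMI. The Lbp and Hmga2 thresholds, not the Clu threshold, thus set which cells were in or out.

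The genes that named the cells are reported as levels without a test, since the rule or the label used them. Levels are in CPM, the UMIs of a gene scaled to a total of 1000000 gene UMIs after summing over the cells of a mouse. Clu lay between 2869 and 4607 CPM over the 15 mice, with a median of 3694, and its mean was 3751 ± 529 (SD, n = 15) against 3105 in Hmga2+ cells. Lbp lay between 146 and 270, with a median of 189, and its mean was 196 ± 35.2 (SD, n = 15) against 118 in Hmga2+ cells and 2.82 in tumor cells that failed the Clu or Lbp threshold. Cp, the ferroxidase that carries plasma copper, ranged from 1281 to 1931 with a median of 1597 and a mean of 1605 ± 189 (SD, n = 15), compared with 1320 in Hmga2+ cells. Complement C3, the central protein of the complement cascade, ranged from 1181 to 2036 with a median of 1524 and had a mean of 1532 ± 242 (SD, n = 15), compared with 729 in Hmga2+ cells. Sox9 went the other way, with a range from 188 to 353, a median of 292 and a mean of 283 ± 49.8 (SD, n = 15) against 337 in Hmga2+ cells, and it was lower than in the Hmga2+ cells of the same mouse in 12 of 15 mice. Sox9, although a marker of the label, was therefore not highest in these cells.

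By mouse, Clu was 3443, 3628, 3173, 3694 and 4202 CPM in the PBS group, 4323, 4358, 4154, 3321 and 4607 in the mono-IL10 group, and 3266, 3890, 3197, 2869 and 4139 in the IL10/2-Trikine group. The 3 groups overlapped. Lbp was 146, 211, 168, 168 and 184 in PBS, 189, 212, 270, 165 and 163 in mono-IL10, and 205, 237, 200, 172 and 248 in IL10/2-Trikine, again with overlapping groups. Sox9 was 300, 188, 208, 319 and 263 in PBS, 276, 303, 217, 262 and 262 in mono-IL10, and 333, 353, 329, 292 and 336 in IL10/2-Trikine, where 4 of 5 mice lay above every other mouse.

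For a group of acute-phase genes and for the most reduced protease gene, the promoter is shown so that their letters can be set beside the expression values given below. The 250 bases before the annotated start were read from RefSeq in the build GRCm38.p6, which is older than the GRCm39 build of the expression files. Of 31 genes looked for, 22 matched. The 4 acute-phase promoters were chosen after their values were seen, for holding a STAT or C/EBP match beside a higher level, as 13 of the 19 acute-phase promoters read held such a match. Those of Crp and Lrg1, described below, held none. The promoters of Saa1, Saa2, Orm2, Fga and Fgb held such a match too, although these genes had no UMI in these cells. The following promoters are written 5′ to 3′ on the strand of the gene, and capitals mark every match, on either strand, to TTCNNNGAA (STAT), TTGCNNAA (C/EBP), GGGNN directly followed by TTTCC (NF-kB), TGANTCA (AP-1) or TATAAA. They are Lcn2 (chr2:32387740-32387989, minus strand), C3 (chr17:57228137-57228386, minus strand), Steap4 (chr5:7960222-7960471, plus strand), Itih4 (chr14:30886226-30886475, plus strand) and Mmp13 (chr9:7272264-7272513, plus strand).
Lcn2: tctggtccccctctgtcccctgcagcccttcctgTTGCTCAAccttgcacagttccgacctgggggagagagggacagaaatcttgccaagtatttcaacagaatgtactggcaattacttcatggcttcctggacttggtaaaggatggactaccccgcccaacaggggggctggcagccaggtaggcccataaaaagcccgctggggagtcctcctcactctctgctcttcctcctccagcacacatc
C3: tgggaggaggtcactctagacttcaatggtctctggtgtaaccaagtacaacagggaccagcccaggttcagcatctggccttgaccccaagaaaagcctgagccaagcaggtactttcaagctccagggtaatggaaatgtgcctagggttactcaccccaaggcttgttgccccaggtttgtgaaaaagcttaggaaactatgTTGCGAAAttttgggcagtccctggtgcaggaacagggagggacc
Steap4: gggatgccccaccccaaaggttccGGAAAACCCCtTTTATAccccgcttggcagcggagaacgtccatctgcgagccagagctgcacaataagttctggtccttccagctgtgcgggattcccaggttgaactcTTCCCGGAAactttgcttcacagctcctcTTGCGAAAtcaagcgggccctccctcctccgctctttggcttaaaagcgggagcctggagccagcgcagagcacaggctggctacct
Itih4: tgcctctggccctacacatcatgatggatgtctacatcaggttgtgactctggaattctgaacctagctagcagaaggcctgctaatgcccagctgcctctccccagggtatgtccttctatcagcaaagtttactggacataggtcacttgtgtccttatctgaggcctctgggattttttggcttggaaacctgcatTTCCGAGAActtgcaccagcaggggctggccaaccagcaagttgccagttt
Mmp13: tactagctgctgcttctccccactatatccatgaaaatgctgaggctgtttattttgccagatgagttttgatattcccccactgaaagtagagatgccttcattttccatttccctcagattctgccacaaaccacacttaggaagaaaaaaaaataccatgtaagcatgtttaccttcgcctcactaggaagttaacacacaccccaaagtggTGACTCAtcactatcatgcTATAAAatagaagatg

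The C/EBP match began 45 bases before the start in C3, 87 in Steap4 and 216 in Lcn2. A STAT match began 116 bases before the start in Steap4, where it was the stricter TTCCNGGAA, and 51 bases before the start in Itih4. The Mmp13 promoter held an AP-1 match 35 bases before the start. Over all 32851 promoters of the same length, 9.56% held the C/EBP letters, 7.02% the STAT letters, 0.913% the strict STAT letters, 1.41% the NF-kB letters, 6.75% the AP-1 letters and 12.4% TATAAA. A match is a description of the letters and not evidence of binding.

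The first question was how large the population was in each treatment group. As a share of the tumor epithelial barcodes of a mouse, Clu+ Lbp+ Hmga2- cells made up 15.5%, 11.1%, 6.16%, 11.2% and 5.52% in the PBS mice, which is a mean of 9.92% ± 4.13 (SD, n = 5). They made up 4.21%, 6.79%, 6.71%, 6.19% and 3.65% in the mono-IL10 mice, with a mean of 5.51% ± 1.47 (SD, n = 5). The IL10/2-Trikine mice held 15.1%, 14.0%, 12.9%, 15.1% and 13.3%, with a mean of 14.1% ± 1.02 (SD, n = 5). Every IL10/2-Trikine mouse lay above every mono-IL10 mouse, and the PBS mice overlapped both. In two-sided exact permutation tests over mice, adjusted over the 3 comparisons by Benjamini-Hochberg, the share was higher under IL10/2-Trikine than under mono-IL10 (p = 0.00794, the smallest p that 5 against 5 allows, adjusted p = 0.0238). In the same exact permutation test the difference to PBS did not pass the threshold (p = 0.0635, adjusted p = 0.0794), nor did that of mono-IL10 to PBS (p = 0.0794, adjusted p = 0.0794).

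At 5000 UMIs per barcode the difference was no longer seen. The shares were then 18.2%, 16.6%, 15.05%, 15.6% and 13.4% in PBS (mean 15.8% ± 1.80, SD, n = 5), 8.69%, 17.7%, 18.2%, 18.4% and 10.9% in mono-IL10 (mean 14.8% ± 4.63, SD, n = 5) and 17.0%, 14.1%, 15.5%, 15.5% and 15.4% in IL10/2-Trikine (mean 15.5% ± 0.996, SD, n = 5). The groups overlapped, and the IL10/2-Trikine mean was 0.725 percentage points above the mono-IL10 mean and 0.267 points below the PBS mean. The share of Hmga2+ barcodes also lay closer together between groups after thinning. Counted without Tff1 UMIs, its group means were 76.7%, 86.1% and 64.3% as deposited in PBS, mono-IL10 and IL10/2-Trikine. After thinning they were 53.1%, 56.1% and 52.3%, counted with or without Tff1. Over all tumor barcodes of a library as deposited, with or without Tff1, Hmga2 was detected in 81.1%, 91.7% and 67.4%. The plot of shares by mouse shows both settings.

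**Figure D1:**
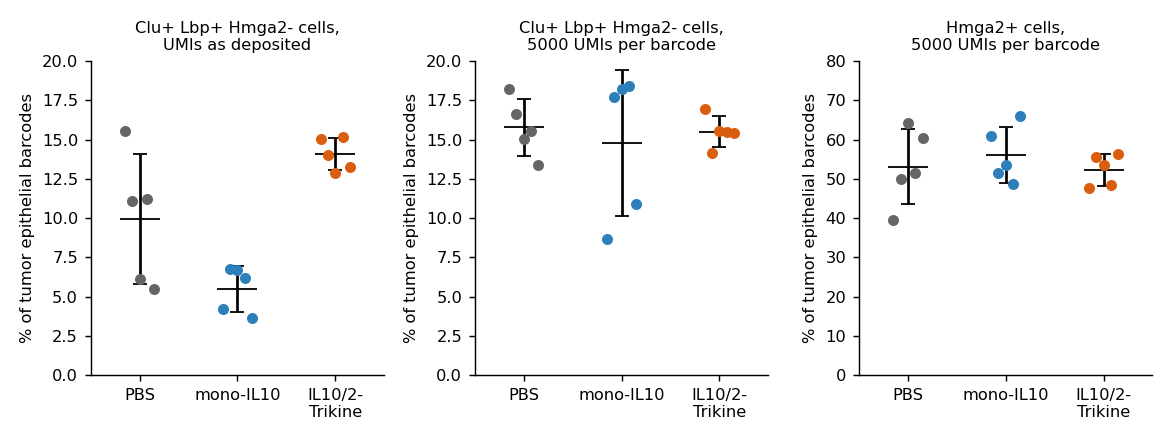
Percent of the tumor epithelial barcodes of each mouse (y axis) in the 3 treatment groups (x axis) for Clu+ Lbp+ Hmga2- cells with UMIs as deposited, barcodes that met the rule at 5000 UMIs per barcode, and Hmga2+ cells at 5000 UMIs per barcode. Points are mice, horizontal marks are means and error bars are SD (n = 5). The Hmga2+ cells were counted with or without Tff1. As deposited the IL10/2-Trikine mice (12.9% to 15.1%) lie above the mono-IL10 mice (3.65% to 6.79%), and after thinning the groups overlap.

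Counted over all singly hashtagged barcodes, leukocytes included, the cells made up 1.26% ± 0.665 in PBS, 1.01% ± 0.454 under mono-IL10 and 3.99% ± 1.42 under IL10/2-Trikine (SD, n = 5 each), and the IL10/2-Trikine share was higher than either other group (adjusted p = 0.0238 for both in the exact permutation test). At 5000 UMIs per barcode the means were 3.26% ± 1.03, 3.85% ± 1.96 and 7.36% ± 1.96 (SD, n = 5 each). With this limit the IL10/2-Trikine mice (4.60% to 8.82%) overlapped both the mono-IL10 mice (1.51% to 5.81%) and the PBS mice (2.35% to 4.97%). The IL10/2-Trikine mean was higher than in either group (adjusted p = 0.0476 for both in the exact permutation test). Tumor epithelial barcodes as a whole made up 12.9% of the barcodes of a PBS mouse, 19.7% of a mono-IL10 mouse and 28.8% of an IL10/2-Trikine mouse on average, and their part in this share was not tested.

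The second question was what set the Clu+ Lbp+ Hmga2- cells apart from the Hmga2+ tumor cells of the same mice. They showed more transcripts of acute-phase, complement and MHC class II genes and of the epithelial genes Prom1, Epcam and Dmbt1. They showed fewer transcripts of cell cycle genes, of matrix metalloprotease 13 and of the cytokines Csf2 and Lif. Counts were summed per mouse and cell type and fitted with edgeR's quasi-likelihood test with the mouse as a block, over 15 mice and 10344 genes, leaving out the genes of the rule and label. A gene was called at an adjusted p under 0.05 (Benjamini-Hochberg over all genes tested) and a difference of at least 1 on the log2 scale. By this, 361 genes were called, 3.49% of those tested, with 191 higher (1.85%) and 170 lower (1.64%). At the adjusted p alone 40.6% of the genes tested passed, 21.0% higher and 19.6% lower, and the counts of list members at the adjusted p given below are to be read against these shares. The genes tested were not used by the rule but were counted in the same cells, so a gene whose UMIs go with those of Lbp or Hmga2 from cell to cell differs for that reason too.

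Among acute-phase genes, 10 of the 25 on the list could be tested outside the rule and label, and 5 were called higher and 0 lower, with 9 higher at the adjusted p alone. Their median log2 difference was 0.90, beside 0.02 over all genes tested. Lipocalin 2 (Lcn2), which binds bacterial siderophores, was at 81.4 to 431 CPM with a median of 154, against 28.2 to 107 with a median of 66.9 in Hmga2+ cells. It was higher in 15 of 15 mice, by 1.38 on the log2 scale (SE 0.112, adjusted p = 2.98e-13). Neutrophil markers had medians of 89.5, 32.9 and 158 CPM in PBS, mono-IL10 and IL10/2-Trikine, against 30.8, 24.2 and 118 in Hmga2+ cells. Their part in the Lcn2 difference was not tested. Itih4, a serum protease-inhibitor heavy chain, was at 9.31 ± 5.00 against 3.33 ± 1.25 CPM (SD, n = 15) and was called at 1.52. C-reactive protein (Crp), a pentraxin that binds bacterial surfaces, was at 9.79 ± 6.75 against 3.69 ± 1.51, and leucine-rich alpha-2-glycoprotein (Lrg1) at 7.96 ± 5.06 against 3.24 ± 1.73 (SD, n = 15). These low levels show a difference in direction in 14, 13 and 13 of 15 mice respectively. The scavengers of free hemoglobin and heme, haptoglobin (Hp, 0.53) and hemopexin (Hpx, 0.63), and the metalloreductase Steap4 (0.63) passed the adjusted p at smaller log2 differences.

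Several acute-phase genes of the list were not detected. Saa1, Saa2, Orm2 and the fibrinogen genes Fga, Fgb and Fgg had no UMI in any of the 15 mice in these cells, which allows a level of up to 0.161 CPM over the 15 mice (3 counts in 18598187 UMIs, counting error only). Saa3, the serum amyloid A of peripheral tissues, was detected in 4 mice, at 60.6 CPM in IL10/2-Trikine mouse 1 and at 7.01, 2.18 and 1.67 in the others.

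Of 10 complement genes tested 4 were called higher, 0 lower and 8 higher at the adjusted p alone, with a median of 0.90. C4b and Cfb stand on both lists, and of the 8 complement genes not on the acute-phase list 3 were called higher and 6 were higher at the adjusted p. C4b, the shared component of the classical and lectin pathways, was at 21.5 to 79.0 CPM with a median of 45.6, against 12.9 to 25.5 with a median of 18.8, and was higher in 14 of 15 mice (log2 difference 1.38, SE 0.108, adjusted p = 1.05e-13). Complement C2, the protease of the same convertase, was higher in 15 of 15 mice at 28.1 ± 4.22 against 16.4 ± 3.12 CPM (SD, n = 15, log2 difference 0.79). Factor I (Cfi), which inactivates C3b and C4b, was at 17.3 ± 10.3 against 5.38 ± 1.93, and the regulator Cd55 (1.02) was also called higher. Genes of complement activation and of its restraint were thus both among those called.

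Among the receptors and transcription factors that act upstream of acute-phase genes, none of 9 receptor genes tested and none of 24 JAK-STAT, C/EBP and NF-kB genes was called at the log2 threshold. At the adjusted p alone, 6 receptor genes were higher, among them gp130 (Il6st, 0.31), the oncostatin M receptor Osmr (0.32) and the IL-10 receptor chain Il10rb (0.33), and the IL-1 receptor Il1r1 was lower (-0.31). Of the 24 JAK-STAT, C/EBP and NF-kB genes, 7 were higher and 2 lower at the adjusted p, a share near that of all genes. Stat3 was at 143 to 201 CPM with a median of 165, against 119 to 153 with a median of 132, and was higher in 15 of 15 mice by 0.32 (SE 0.0693, adjusted p = 0.000224). Cebpd, an acute-phase C/EBP factor, was higher by 0.64 in 14 of 15 mice, and Stat5a by 0.56 in 13 of 15. Nfkb1 was lower in 15 of 15 mice, at 139 ± 19.4 against 191 ± 28.8 CPM (SD, n = 15, log2 difference -0.42). Socs3, a feedback inhibitor induced by STAT3, did not pass the test, at 84.8 ± 21.1 against 90.01 ± 7.29 CPM (SD, n = 15).

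Of 13 genes of iron and copper handling, 1 was called higher, and 6 were higher and 1 lower at the adjusted p, where 40.6% of all genes passed. The called gene was Lcn2, which also stands on the acute-phase list, so the genes named next were not called. Ferroportin (Slc40a1), the iron exporter, was at 70.3 ± 17.8 against 42.5 ± 9.87 CPM (SD, n = 15), and the copper transporter Atp7b at 34.7 ± 7.19 against 18.9 ± 4.09, each higher in 15 of 15 mice. Transferrin (Trf) was higher by 0.49 in 14 of 15 mice.

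**Figure D2:**
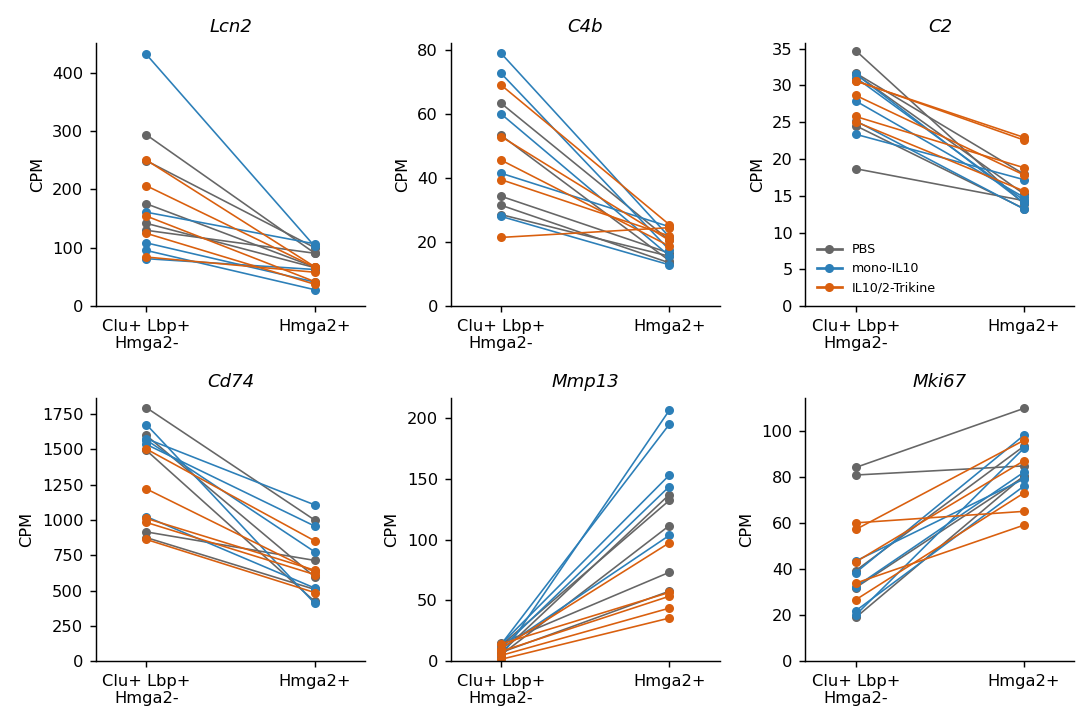
CPM (y axes, each from 0) of Lcn2, C4b, C2, Cd74, Mmp13 and Mki67 in the Clu+ Lbp+ Hmga2- cells and the Hmga2+ cells of the same mouse (x axis). Each line joins the values of 1 of 15 mice, coloured by treatment, and Lcn2, C2 and Cd74 are higher in the Clu+ Lbp+ Hmga2- cells of every mouse while Mmp13 and Mki67 are lower in every mouse.

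Of 15 tested genes of ductal and epithelial identity, 9 were higher and 2 lower at the adjusted p, with a median of 0.44. The stem and ductal marker Prom1 was at 87.6 to 184 CPM with a median of 137, against 42.3 to 76.4 with a median of 66.3, so the 2 cell types did not overlap (log2 difference 1.15). Epcam was also called (1.12), and the epithelial mucin Muc1 was higher in 15 of 15 mice at 179 ± 35.6 against 94.2 ± 14.4 CPM (SD, n = 15). The epithelial transcription factors Elf3 (0.80), Ehf (0.65) and Onecut2 (0.61) were higher and Foxa2 (-0.35) and Krt23 (-0.62) were lower. Krt19, at 992 ± 184 against 973 ± 155 CPM, did not pass the test.

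Of 7 tested genes of mucous-type gastric epithelium 2 were called higher, with 4 higher and 1 lower at the adjusted p and a median of 0.86. One was Dmbt1, a secreted scavenger receptor, at 126 to 744 CPM with a median of 304 against 72.2 to 165 with a median of 105. It was higher in 15 of 15 mice by 1.60 (SE 0.189, adjusted p = 3.18e-09). Trefoil factor 2 (Tff2) was called at 1.45, but it ranged from 0 to 271 CPM and was higher in 11 of 15 mice. Of the 10 genes with the largest increases among those higher in every mouse and at 20 CPM or more, the retinol and alcohol dehydrogenase Adh1 stood first, at 21.8 ± 11.3 against 5.67 ± 1.57 CPM (SD, n = 15, log2 difference 1.88). It was followed by Lypd8l (1.67), Spink4 (1.65), Dmbt1, the thyroxine carrier transthyretin Ttr (1.58), Naaladl2 (1.52), Hnf1aos1 (1.48), Lcn2, carbonic anhydrase 2 (Car2, 1.33) and the thioredoxin inhibitor Txnip (1.28).

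At the other end, Prl2c2 (a proliferin) was at 0 to 12.5 CPM with a median of 3.51, against 14.0 to 86.1 with a median of 53.1, and was lower by 3.60 on the log2 scale (log2 difference -3.60). The collagenase Mmp13 was at 1.72 to 14.8 CPM with a median of 10.4, against 35.5 to 206 with a median of 103, without overlap (log2 difference -3.43, SE 0.335, adjusted p = 5.94e-11). The cartilage proteoglycan aggrecan (Acan, -2.27), Klhl1 (-2.06), the IL-5 receptor Il5ra (-1.90), Mrc1 (-1.59) and the IGF carrier Igfbp3 (-1.55) were also lower. With the mitotic genes Pimreg (-1.52) and Bub1 (-1.51) and the histone gene H2ac20 (-1.49), they made up the rest of the 10 largest decreases seen in every mouse. The 3 mast cell markers had medians of 1.02, 0.969 and 2.91 CPM in PBS, mono-IL10 and IL10/2-Trikine, against 14.5, 15.6 and 12.5 in Hmga2+ cells. Their part in these decreases was not tested.

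Cell cycle genes were lower throughout. Of 17 tested genes, 9 were called lower and all 17 were lower at the adjusted p, with a median of -1.03. Top2a, which untangles DNA in dividing cells, was at 84.5 ± 41.6 against 217 ± 32.3 CPM (SD, n = 15, log2 difference -1.40), and Mki67 at 42.3 ± 20.3 against 83.9 ± 13.1 (log2 difference -1.03), each lower in 15 of 15 mice. At 5000 UMIs per barcode, an Mki67 UMI was held on average over mice by 12.8% of the barcodes that met the rule at that depth in PBS, 14.99% under mono-IL10 and 16.9% under IL10/2-Trikine, beside 28.4%, 25.8% and 25.2% of the Hmga2+ cells. As deposited the shares with an Mki67 UMI were 22.9%, 24.6% and 19.9%.

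Secreted inflammatory signals moved in both directions, with 3 of 18 chemokine and colony-stimulating factor genes called higher and 2 lower, 5 higher and 7 lower at the adjusted p, and a median of 0.03. Csf2 (GM-CSF) was at 30.6 ± 18.2 against 93.8 ± 28.0 CPM (SD, n = 15, log2 difference -1.59), and the IL-6-family cytokine Lif at 14.7 ± 10.4 against 31.2 ± 7.09 (log2 difference -1.12). The neutrophil chemokine Cxcl1 was lower by 0.82 on the log2 scale (log2 difference -0.82) and the monocyte chemokine Ccl2 had a log2 difference of -0.66, each in 13 of 15 mice. The called increases of Il6 and Cxcl12 rested largely on PBS mouse 3, at 53.4 and 69.4 CPM, where the median over mice was 1.67 and 0.

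All 7 MHC class II genes were higher at the adjusted p, none reached the log2 threshold, and the median was 0.85. The invariant chain Cd74 was at 862 to 1795 CPM with a median of 1493, against 411 to 1107 with a median of 632, and was higher in 15 of 15 mice by 0.97 (SE 0.0893, adjusted p = 6.45e-12). H2-Aa (0.88), H2-Ab1 (0.80), H2-Eb1 (0.90) and the transactivator Ciita (0.85) lay close to it. Of 13 MHC class I genes none was called and 6 were higher at the adjusted p, with H2-K1 at 0.30 and B2m at 0.16, and of 19 interferon-induced genes 10 were higher, which fell to 3 with DESeq2. Class II genes are also expressed by leukocytes. All 4 dendritic cell markers were at 0 in the mono-IL10 group and 3 of 4 in each other group. The 8 macrophage markers summed to 9.08 to 28.0 CPM in mono-IL10, 37.5 to 259 in PBS and 30.9 to 54.1 in IL10/2-Trikine. These sums are limited by the selection, which capped the C1q genes among them and excluded Ptprc UMIs in both cell types. In Hmga2+ cells the same markers summed to 10.6 to 15.6, 26.2 to 44.9 and 25.2 to 40.0, and their median was lower than in the Clu+ Lbp+ Hmga2- cells in PBS (33.1 against 47.8) and IL10/2-Trikine (28.6 against 36.2) and higher in mono-IL10 (14.3 against 10.8). Their part in the class II difference was not tested. Cd74 was at 1475 ± 258 CPM in mono-IL10, 1336 ± 416 in PBS and 1116 ± 251 in IL10/2-Trikine (SD, n = 5 each).

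At the adjusted p alone, the mesenchymal-type list of Hmga2 and YAP genes had 1 gene higher and 7 lower of 15. Vimentin (Vim) was at 2516 ± 389 against 3395 ± 579 CPM (SD, n = 15, log2 difference -0.40), and Itga5 of the same list at -0.72. Among 14 integrin, laminin and matrix genes, 2 were higher and 8 lower at the adjusted p, including Timp1 (-0.63) and the plasminogen activator Plau (-0.96). The fibroblast markers had medians of 25.8, 18.2 and 221 CPM in PBS, mono-IL10 and IL10/2-Trikine, against 181, 136 and 224 in Hmga2+ cells. Their part in the mesenchymal and matrix differences was not tested. The regenerative list around Clu did not follow Clu, with 3 of 12 higher and 6 lower at the adjusted p, among them Anxa1 (-0.50), Areg (-0.47) and Ereg (-0.68). Of 13 hypoxia genes 5 were higher and 1 lower at the adjusted p, a share near that of all genes, and only carbonic anhydrase 9 (Car9) was called, at 31.3 ± 11.1 against 15.8 ± 3.89 CPM. The TRP1 antigen gene Tyrp1 did not pass the test, at 5.19 to 78.0 CPM with a median of 37.9, against 29.6 to 79.0 with a median of 43.7.

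**Figure D3:**
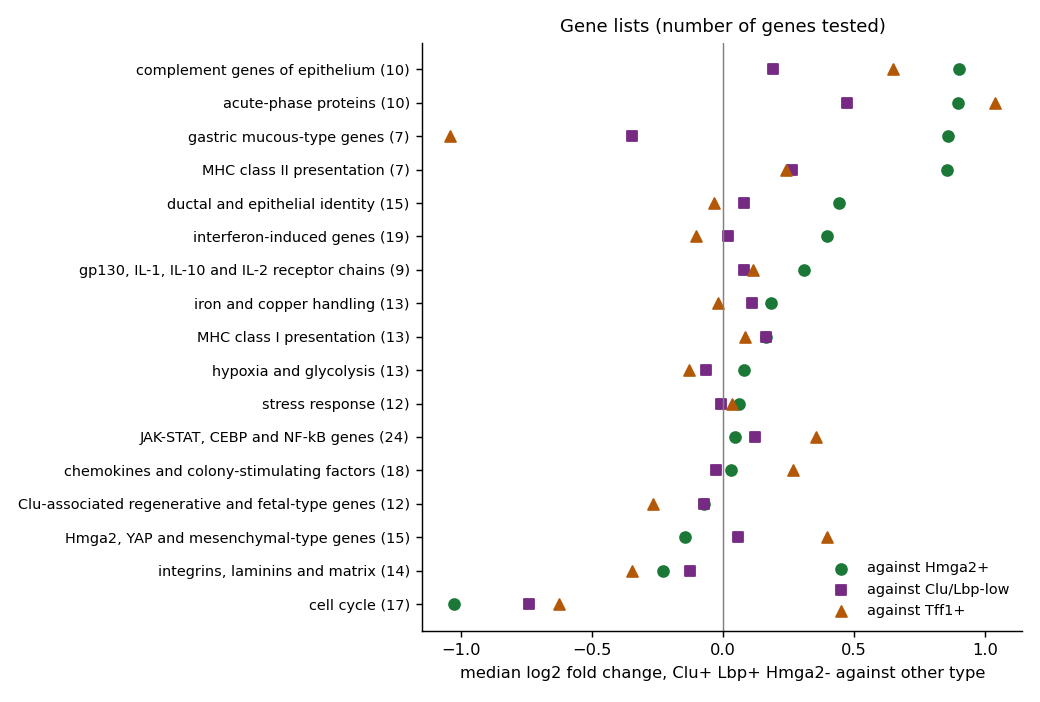
Median log2 fold change of the tested genes of each list (y axis, number of genes tested against Hmga2+ cells in brackets) in Clu+ Lbp+ Hmga2- cells against Hmga2+, Clu/Lbp-low and Tff1+ tumor cells (x axis, log2). Acute-phase and complement lists lie at 0.90 and cell cycle at -1.03 against Hmga2+ cells, and the gastric mucous list at -1.04 against Tff1+ cells.

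These differences were looked at again after thinning, and with both cell types limited to barcodes within the middle 50% of the UMI totals of the Clu+ Lbp+ cells of their library. Of the 10 named increases, 10 were called after thinning to 5000 UMIs and 9 within this UMI range, and of the 10 named decreases 9 were called in each. The sizes of the decreases changed, since Mmp13 was at -2.06 and Prl2c2 at -1.91 after thinning. By list, 7 acute-phase genes were higher and 1 lower of 8 tested, 8 of 9 complement genes were higher, all 7 class II genes were higher and all 17 cell cycle genes were lower after thinning, at the adjusted p alone, where 31.3% of all genes passed (15.8% higher and 15.5% lower). Barcodes that entered through lost Ptprc or C1q UMIs can be among the thinned cells. Their part in the class II and complement counts was not tested. When the Hmga2+ cells were limited to those that met the Clu and Lbp thresholds as well, the counts at the adjusted p were 6 of 10 acute-phase genes, 6 of 10 complement genes and 7 of 7 class II genes higher, and 17 of 17 cell cycle genes lower, with medians of 0.72, 0.76, 0.70 and -0.84, where 30.8% of all genes passed (15.9% higher and 14.9% lower).

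**Figure D4:**
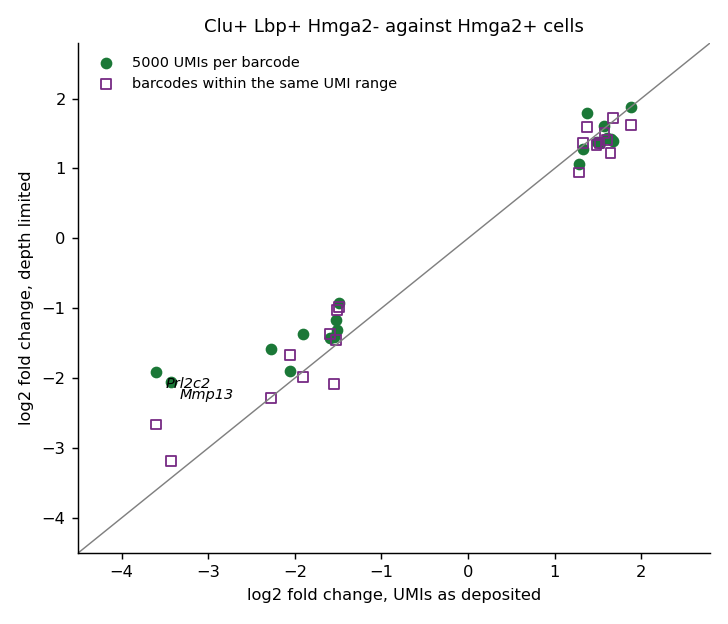
Log2 fold change of the 20 named genes in Clu+ Lbp+ Hmga2- against Hmga2+ cells, as deposited (x axis) and with depth limited (y axis), as filled points for barcodes thinned to 5000 UMIs and open squares for barcodes of both types within the same UMI range. The grey line marks equal values, and Mmp13 moves from -3.43 to -2.06 and Prl2c2 from -3.60 to -1.91 after thinning.

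Against the Hmga2- Tff1- tumor cells that failed the Clu or Lbp threshold (1447 of the 1449 Clu/Lbp-low cells, in the 14 mice with at least 10 of them), fewer genes differed. Of 10344 genes 60 were called, 0.58% of those tested, with 14 higher (0.135%) and 46 lower (0.445%), and 10.4% passed the adjusted p alone (4.28% higher and 6.14% lower). Over these 14 mice Lcn2 was at 81.4 to 294 CPM with a median of 148, against 10.6 to 154 with a median of 81.6, and was higher in 14 of 14 mice (log2 difference 1.11, SE 0.145, adjusted p = 1.07e-06). Ramp1, a calcitonin-family receptor partner, was at 87.8 ± 17.9 against 36.6 ± 15.7 CPM (SD, n = 14) and was higher in 14 of 14 mice (log2 difference 1.07). Cfi (1.17, higher in 13 of 14 mice), Hp (1.01) and Hpx (1.28) were called higher, and Tgfbi (-1.26) and the replication factor Mcm5 (-1.01) lower. After thinning neither Lcn2 nor Ramp1 was called, Hp stood at 0.93, under the log2 threshold, and Tgfbi was at 0.06, as it was within the UMI range, so that its direction turned.

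No other gene of the lists was called against the Clu/Lbp-low cells. At the adjusted p, 1 of 7 MHC class II genes (median 0.26) and 2 of 10 complement genes (median 0.19) were higher. Transferrin (Trf) was higher by 0.89 (SE 0.0967, adjusted p = 7.59e-08) and osteopontin (Spp1) by 0.83, each in 13 of 14 mice, and Socs2, an inhibitor induced by STAT5, by 0.61 in 14 of 14. Stat3 (0.27) and Cebpd (0.44) were again higher in 11 of 14 mice. The cell cycle genes were again lower, 17 of 17 at the adjusted p with a median of -0.74, and Top2a stood at -0.87. No ductal or mucous-type gene was called. At the adjusted p, 3 of 15 ductal genes were higher, namely Spp1, Ehf (0.33) and Onecut2 (0.32), and 1 of 7 mucous-type genes was lower, Anxa10 (-0.35), while Muc1 at 0.11 and Dmbt1 at -0.58 did not pass. Of the named decreases, AA467197 (-1.05) and Dnph1 (-1.04) were lower in 14 of 14 mice, and so was Cxcr4 (-1.53). After thinning only Dnph1 was called, with AA467197 at -0.43 and Cxcr4 at 0.00, and within the UMI range only AA467197 was. Macrophage markers had medians of 47.8, 10.8 and 36.2 CPM in PBS, mono-IL10 and IL10/2-Trikine, against 166, 22.8 and 69.2 in Clu/Lbp-low cells. The C1q genes among these markers were capped in both cell types. Endothelial markers were at 3.44 against 26.8 in IL10/2-Trikine. Neutrophil and fibroblast markers were higher in Clu/Lbp-low cells in some groups and lower in others. The part of these transcripts in the differences from Clu/Lbp-low cells, Cxcr4 and Tgfbi included, was not tested.

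Against Tff1+ tumor cells, defined by at least 3 Tff1 UMIs and no Hmga2 UMI, 80 of the 112 barcodes could be used, from the 4 mice with at least 10 such cells, 1 in PBS and 3 in IL10/2-Trikine. Of 10344 genes, 177 were called (1.71%), with 90 higher (0.87%) and 87 lower (0.841%), and 6.4% passed the adjusted p alone (1.89% higher and 4.51% lower). Without TMM scaling the split was 180 higher and 58 lower, with the median of all genes at 0.19. The gastric mucous list was lower, 3 of 7 genes called and 5 at the adjusted p, with a median of -1.04. Over these 4 mice Tff2, a secreted trefoil peptide of mucous cells, was at 33.9 to 67.4 CPM with a median of 44.1, against 1151 to 2175 with a median of 1758, without overlap (log2 difference -5.03, SE 0.49, adjusted p = 2.93e-09). The gastric protease cathepsin E (Ctse) was at 139 ± 42.6 against 264 ± 105 CPM (SD, n = 4, log2 difference -1.04). The secreted matricellular YAP targets Ccn1 (1.44) and Ccn2 (1.31), transferrin (Trf, 1.51) and Cebpd (1.36) were higher in 4 of 4 mice, and no cell cycle gene was called. None of 7 MHC class II genes passed the adjusted p (median 0.24), and 2 of 10 complement genes were called higher (median 0.65). Of the 10 named increases, led by Hip1 (2.50), 3 were called after thinning, 3 within the UMI range and 9 with DESeq2. Of the 10 named decreases, 8 of the 9 that could be tested were called after thinning, 3 of 9 within the UMI range and 4 of 10 with DESeq2.

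The third question was what the treatments changed inside the Clu+ Lbp+ Hmga2- cells. In edgeR's quasi-likelihood test over 8115 genes, a gene was called at an adjusted p under 0.05. IL10/2-Trikine against PBS called 70 genes (0.863%), 51 higher (0.628%) and 19 lower (0.234%), and without TMM scaling the split was 41 higher and 32 lower. IL10/2-Trikine against mono-IL10 called 36 genes (0.444%), 11 higher (0.136%) and 25 lower (0.308%), and 21 higher and 19 lower without TMM scaling. With 1 mouse left out these counts lay between 30 (without PBS mouse 2) and 73, and between 10 (without IL10/2-Trikine mouse 2) and 44. For mono-IL10 against PBS 0 genes were called, with 608 at an unadjusted p under 0.05 and 37 called by DESeq2. The comparisons with IL10/2-Trikine share the same 5 mice. Nothing in the labels says that the hashtagged samples of a group differ in more than the mouse, and p-values measure the spread between these mice within 1 library each. Mice were told apart by the top hashtag, which held a median of 76.8%, 76.3% and 78.3% of antibody UMIs in PBS, mono-IL10 and IL10/2-Trikine. The part of cells given to the wrong mouse in this spread was not tested.

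Of 6 acute-phase genes tested, Il1rn alone differed past the test, being lower under IL10/2-Trikine than under PBS, and no complement gene differed between any of the groups. Lcn2 was 130, 175, 294, 249 and 142 CPM in PBS, 108, 81.4, 431, 161 and 95.5 in mono-IL10, and 250, 125, 84.1, 206 and 154 in IL10/2-Trikine. The groups overlapped, and IL10/2-Trikine against PBS gave a log2 difference of -0.18 (SE 0.335, adjusted p = 0.935). For C4b the difference was 0.32 (SE 0.253) and for Stat3 -0.01 (SE 0.107). Of the genes on the lists, only Ccl2 and Pim1 were higher and Il1rn and Krt19 lower under IL10/2-Trikine than under PBS.

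The receptor chains of the injected cytokines were little detected, apart from Il10rb. It was at 18.8, 14.8 and 18.6 CPM on average in PBS, mono-IL10 and IL10/2-Trikine. Il10ra, the chain that binds IL-10, was at 2.56, 1.303 and 1.38, and Il2rb at 1.296, 0.41 and 2.10. Il2rg, which the IL-2 arm of IL10/2-Trikine was mutated not to bind per the paper, was at 3.30, 0.58 and 2.16.

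Ccl2 was 136, 75.3, 112, 150 and 145 CPM in PBS, 94.5, 246, 298, 248 and 255 in mono-IL10, and 256, 163, 294, 376 and 233 in IL10/2-Trikine. Every IL10/2-Trikine mouse lay above every PBS mouse, the mono-IL10 mice overlapped both, and the log2 difference of IL10/2-Trikine against PBS was 1.16 (SE 0.242, adjusted p = 0.0192). After thinning to 5000 UMIs it was 0.26 (adjusted p = 0.543). Il1rn, the IL-1 receptor antagonist, was 173, 147, 160, 233 and 252 in PBS and 107, 126, 89.5, 120 and 95.3 in IL10/2-Trikine, without overlap (log2 difference -0.75, SE 0.169, adjusted p = 0.0283). The ductal keratin Krt19 was 1252, 1288, 1075, 1104 and 1243 in PBS, 906, 856, 890, 993 and 1175 in mono-IL10, and 714, 862, 834, 870 and 816 in IL10/2-Trikine (log2 difference -0.49, SE 0.096, adjusted p = 0.0142). Il1rn and Krt19 were both lower in every IL10/2-Trikine mouse than in any PBS mouse. After thinning neither passed the test, with Il1rn at -0.48 (adjusted p = 0.0563) and Krt19 at -0.24 (adjusted p = 0.139).

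Other genes were named by the size of their change among those whose groups did not overlap. Of the 70 genes called against PBS 58 did not overlap, where 3.11% of all genes tested did not. Wfdc17, a secreted protein of the whey acidic protein family, was 6.13, 11.2, 2.67, 13.9 and 5.26 CPM in PBS and 44.8, 30.3, 25.1, 20.6 and 19.5 in IL10/2-Trikine, all above the PBS mice (log2 difference 1.64, SE 0.325, adjusted p = 0.0148). Wfdc17 is known as a gene of myeloid cells, and the macrophage markers in these cells, which include the C1q genes capped by the rule, summed to 37.5 to 259 CPM in PBS and 30.9 to 54.1 in IL10/2-Trikine. The neutrophil markers had medians of 89.5 and 158, and the part of either in this difference was not tested. The antiproliferative gene Btg2 was 281, 276, 256, 321 and 476 in PBS and 209, 168, 96.7, 127 and 183 in IL10/2-Trikine, without overlap (log2 difference -0.92, SE 0.184, adjusted p = 0.0148). The calcium-binding S100a4 rose by 0.70 and the lineage factor Maf by 0.61, while Stk32a (-1.11), Tm4sf5 (-0.91) and the ephrin Efna1 (-0.76) were lower.

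Xist, the nuclear RNA that coats the inactive X chromosome, was 3303, 3545, 3922, 3767 and 4003 CPM in PBS, 3414, 2820, 2969, 2937 and 3494 in mono-IL10, and 6543, 6276, 5082, 6469 and 6365 in IL10/2-Trikine. The IL10/2-Trikine mice lay above all others, by 0.79 against PBS (SE 0.0902, adjusted p = 7.09e-05) and 0.94 against mono-IL10 (adjusted p = 2.62e-06). Of the 70 genes called against PBS, 19 encoded ribosomal proteins and all 19 were higher, where the 89 ribosomal genes tested had a median of 0.21. The median of the same genes was 0.19 for mono-IL10 against PBS, where none was called, and 0.01 for IL10/2-Trikine against mono-IL10. The Xist difference did not differ past the test from that in the Clu/Lbp-low cells of the same libraries (log2 difference of the differences -0.19, SE 0.167). The part of the libraries in these differences was not tested, since each treatment was 1 library.

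Against mono-IL10, the stress-induced coregulator Nupr1 showed the clearest decrease. It was 1529, 2039, 1286, 1885 and 1493 CPM in PBS, 2427, 2186, 3095, 2115 and 2349 in mono-IL10, and 1039, 1095, 976, 1153 and 1258 in IL10/2-Trikine. The 3 groups did not overlap, with mono-IL10 highest, and the log2 difference of IL10/2-Trikine against mono-IL10 was -1.17 (SE 0.125, adjusted p = 9.9e-06). Against PBS it was -0.52 (adjusted p = 0.0403), and mono-IL10 against PBS stood at 0.64 without passing the test (adjusted p = 0.141). The autophagy receptor Sqstm1 was 844, 1109, 887, 884 and 1019 under mono-IL10 and 537, 563, 422, 471 and 665 under IL10/2-Trikine (log2 difference -0.85, SE 0.119, adjusted p = 0.000707), while the 801, 769, 555, 775 and 662 of the PBS mice lay below every mono-IL10 mouse and overlapped the IL10/2-Trikine mice.

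The other genes lower under IL10/2-Trikine than under mono-IL10 included the growth-arrest gene Gadd45a (-0.86), the autophagy gene Gabarapl1 (-0.74), the polyamine acetyltransferase Sat1 (-0.74), the stress transcription factor Atf3 (-0.58) and tissue factor F3 (-0.68). Among the higher genes were the mitochondrial carrier Sfxn3 (0.99), Maf (0.77) and the death receptor Tnfrsf21 (0.66). After thinning, 9 of the 10 named increases and 6 of the 10 named decreases against mono-IL10 were called, and 6 of 10 and 1 of 9 against PBS. DESeq2 called 9 and 10 of these against mono-IL10 but 4 of 10 and 4 of 10 against PBS, and with the strict gate on Clu and Lbp 6 and 7 of 10 were called against mono-IL10 and 5 of 10 and 3 of 9 against PBS.

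**Figure D5:**
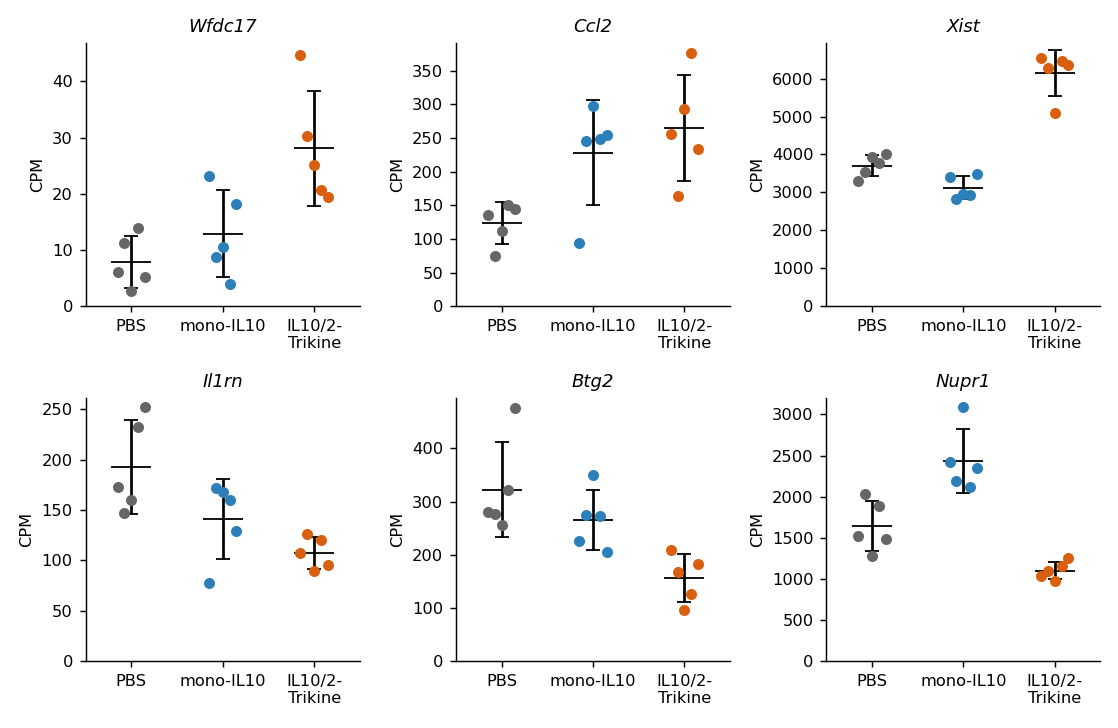
CPM (y axes, each from 0) of Wfdc17, Ccl2, Xist, Il1rn, Btg2 and Nupr1 in the Clu+ Lbp+ Hmga2- cells of each mouse in the 3 treatment groups (x axis). Points are mice, marks are means and error bars are SD (n = 5), and the IL10/2-Trikine mice lie above every PBS mouse for Wfdc17, Ccl2 and Xist and below every PBS mouse for Il1rn, Btg2 and Nupr1.

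Whether the treatments acted differently on these cells than on the Clu/Lbp-low cells was tested as an interaction over 8225 genes. For IL10/2-Trikine against PBS 2 genes were called (0.0243%), 1 higher (0.0122%) and 1 lower (0.0122%), and for the other 2 comparisons 0 genes were called by edgeR, with 693 for mono-IL10 against PBS and 486 for IL10/2-Trikine against mono-IL10 at an unadjusted p under 0.05. DESeq2 called 0 for each IL10/2-Trikine comparison and 13 for mono-IL10 against PBS. The smooth muscle gene Tagln was 1.23, 1.02, 0, 0 and 0 CPM in PBS and 24.0, 10.7, 0, 0 and 36.8 in IL10/2-Trikine, and Crisp1 was 0, 3.41, 0, 134 and 0 in PBS and 2.73, 19.2, 5.37, 3.44 and 24.0 in IL10/2-Trikine. Both calls rested on values in a few mice.

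Markers of other cells were summed in these cells by mouse. Fibroblast markers reached 672 CPM in PBS, 3431 in mono-IL10 mouse 2, where Col1a1 alone was at 1557, and 1489 in IL10/2-Trikine, with medians of 25.8, 18.2 and 221. Neutrophil markers summed to 49.0 to 273 in PBS, 2.60 to 362 under mono-IL10 and 56.3 to 210 under IL10/2-Trikine. T cell markers did not exceed 19.5, and all 4 endocrine markers were at 0. The tumor epithelial markers, keratin 19 among them, summed to 5862 to 6765 in PBS, 5292 to 6840 in mono-IL10 and 3987 to 4780 in IL10/2-Trikine, where every mouse lay below every mouse of the other groups. Krt8 was the highest of these markers in each group. Krt8 and Krt18 are genes of the rule, so this sum is not independent of it. The part of these transcripts in the differences above was not tested.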

How the data were processed

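Droplet 5′ single-cell RNA was measured in 3 treatment libraries. The authors ran Cell Ranger count 9.0.1 per the file headers against GRCm39, and deposited raw UMI counts per gene and filtered barcode for 34187 gene features and 5 hashtag features, with no normalization. The submitters' processing notes name Seurat 5.1.0 and DESeq2 1.46.0, neither of which made these counts. The authors' deposited cell table holds T and NK cells and was not used here. No doublet caller was run, and barcodes without a hashtag at 2/3 of antibody UMIs (44.3%, 29.0% and 47.9% of those past the gene and mitochondrial filters in PBS, mono-IL10 and IL10/2-Trikine) were left out.

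Barcodes were gated by the rule, and UMIs were summed per mouse and cell type where a mouse had at least 10 cells. Differences were tested with edgeR 4.0.16 (R 4.3.3, quasi-likelihood, TMM, default expression filter, Benjamini-Hochberg) with DESeq2 1.42.0 as an alternative, and shares by exact permutation with scipy 1.17.1. Contrasts between cell types had the mouse as a block. Per the study's methods the same set of hashtags was used in each treatment group, so hashtag numbers do not tie mice across treatments. On simulated counts the treatment test recovered 85% of 2-fold and 100% of 4-fold changes, the type test 98% and 100%, and the interaction 59% and 94%. These were counted at the adjusted p alone, without the log2 threshold of the contrasts between types. The simulated counts also held no mouse effect, so the values do not give the recovery of the called genes. Intervals were not needed for the levels, whose error is the spread over mice. Named genes were those of the lists that a result turned on and, for contrasts between types, the 10 largest changes each way among called genes at 20 CPM or more in the higher type that moved the same way in every mouse. For treatments they were up to 10 called genes each way whose groups did not overlap. Mitochondrial, ribosomal and Gm or Rik genes were left out of these. The cells, lists and tests were chosen with earlier results of these data known. Alternatives covered depth, gates, hashtag purity, filters, scaling, test, block, library and each mouse left out. Results for certain withheld genes are not reported here.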

Additional observations from a re-analysis of the deposited data

Results flagged for a closer look

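Of the 60 gene-by-group sets of 5 mice that were looked at, 3 held a mouse standing apart from the other 4 by a Dixon test at 95%, where chance gives about 1 in 20. Lcn2 in mono-IL10 mouse 3 was at 431 CPM, above the other 4 mice at 81.4 to 161, and this mouse held only 10 Clu+ Lbp+ Hmga2- cells. Ccl2 in mono-IL10 mouse 1 was at 94.5, below the others at 246 to 298. Xist in IL10/2-Trikine mouse 3 was at 5082, below the others at 6276 to 6543, and still above every mouse of the other groups.

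In 2 genes the effect of IL10/2-Trikine against PBS differed between the Clu+ Lbp+ Hmga2- cells and the Clu/Lbp-low cells in edgeR's interaction test. Tagln had a difference of 6.26 on the log2 scale (SE 0.979, adjusted p = 0.0278), with 0 in 3 of 5 PBS mice and 2 of 5 IL10/2-Trikine mice in the Clu+ Lbp+ Hmga2- cells. Crisp1 had a difference of -5.75 (SE 0.919, adjusted p = 0.0302), with 134 CPM in PBS mouse 4. Fibroblast markers were also uneven across mice, and their part in these values was not tested.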

How the results depend on the processing

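Thinning to 5000 UMIs per barcode left the share of barcodes that met the rule at that depth 0.725 points higher under IL10/2-Trikine than under mono-IL10 and -0.267 points against PBS, where the sign turned. Part of these barcodes had not met the rule as deposited. With a hashtag at 90% or more of antibody UMIs the difference to mono-IL10 was 5.89 points (adjusted p = 0.333). With at least 5 Clu and 2 Lbp UMIs it was 2.66 points (adjusted p = 0.0476), and 0.686 points against PBS (adjusted p = 0.484). Over all singly hashtagged barcodes the difference to PBS was 2.72 points (adjusted p = 0.0238 in the exact permutation test). Thinning as well, added after seeing the data, limited the denominator to barcodes of at least 5000 UMIs. The difference to PBS was then 4.1 points (adjusted p = 0.0476 in the exact permutation test), and that of mono-IL10 to PBS turned to 0.587. Leaving out 1 mouse, the share difference lay between 3.05 and 5.56 points for IL10/2-Trikine against PBS, where it passed the threshold without PBS mouse 1 (adjusted p = 0.0238), between 8.09 and 8.88 against mono-IL10, and between -5.50 and -3.00 for mono-IL10 against PBS.

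Against Hmga2+ cells 759 genes were called with no filter on low counts, 148 after thinning and 207 within the UMI range of the Clu+ Lbp+ Hmga2- cells. Against Clu/Lbp-low cells the counts were 107, 28 and 97, and 14 within the PBS library. Against Tff1+ cells 62 genes were called within the UMI range of the Clu+ Lbp+ Hmga2- cells, 267 within the IL10/2-Trikine library and 30 within the PBS library, where the lone mouse was assumed to vary like the other cell types of the fit. Within the mono-IL10 library no mouse had enough Tff1+ cells. With 1 mouse left out these 3 counts lay between 325 and 396, 47 and 71, and 90 and 227, the 90 being without IL10/2-Trikine mouse 5. Without the mouse block they were 408, 55 and 164. For treatments, IL10/2-Trikine against PBS gave 113 genes with DESeq2, 130 with no filter, 36 with the strict gate on Clu and Lbp and 155 after thinning, against mono-IL10 101, 98 and 145 with DESeq2, no filter and thinning, and mono-IL10 against PBS 37, 62 and 26. With 1 mouse left out the counts lay between 30 and 73, 10 and 44, and 0 and 3. They fell by more than 1.5 times without PBS mouse 2 (30) or 5 (43) or any IL10/2-Trikine mouse except mouse 1 (33 to 37) against PBS, and without any IL10/2-Trikine mouse except mouse 5 (10 to 15) or mono-IL10 mouse 3 or 4 (19 each) against mono-IL10. The interaction for IL10/2-Trikine against PBS gave 0 genes with DESeq2, the strict gate and thinning and 51 with no filter, for IL10/2-Trikine against mono-IL10 56 with no filter and 1 after thinning, and for mono-IL10 against PBS 13 with DESeq2 and 68 with no filter. With 1 mouse left out these counts lay between 0 and 3, 0 and 9, and 0 and 15. The cause of these moves was not tested.

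Of 4357 settings over the 186 tests of single genes, 3902 kept direction and call, 409 lost the call, 38 gained it and 8 turned sign. These were Hp (-0.06) and Vegfa (-0.11) against Hmga2+ cells within the mono-IL10 library, Hmox1 (-0.14) within the PBS library, Cebpd against Clu/Lbp-low cells within the mono-IL10 library (-0.29), Tgfbi against Clu/Lbp-low cells within the UMI range of the Clu+ Lbp+ Hmga2- cells and after thinning (0.06 each), and the Crisp1 interaction with the strict gate (1.38) and after thinning (0.45). Thinning and the limit of Hmga2+ cells to those with Clu and Lbp were added after seeing the data. Treatment and interaction fits at 90% hashtag purity could not be made. A mouse then held 1 to 22 Clu+ Lbp+ Hmga2- cells in PBS, 1 to 6 in mono-IL10 and 1 to 82 in IL10/2-Trikine, where a fit needed 10. The top hashtag held a median of 76.8%, 76.3% and 78.3% of antibody UMIs in these cells, beside 87.7%, 90.9% and 89.3% in lymphocytes. The assignment of these cells to mice rests on these shares, and its part in the fits was not tested. No paired analysis was possible because hashtag numbers name different mice in each treatment group, which concerns the treatment comparisons, while contrasts between cell types had the mouse as a block.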
